A study of Homo sapiens with 30 samples.

Results

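The 10 genes described here belong to the Notch signalling pathway, of 61578 genes counted in each library. They were chosen by symbol, with earlier results of these data known. They are the ligand genes JAG1 and DLL1, the receptor genes NOTCH1 and NOTCH2, the target genes HES1, HES4, HES5, HEY1 and NRARP, and HES6, a family member that antagonises HES1. All 10 passed the filter on low counts, as 19982 of the 61578 genes did.

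Messenger RNA was sequenced in 30 libraries, 2 for each of 15 groups, and every library is labelled as A549, a human lung adenocarcinoma line. The Mock group was untreated, with genotype WT. All other lines carry an RPB1 degron, which lets dTAGV-1 degrade the endogenous RPB1, the largest subunit of RNA polymerase II, encoded by POLR2A. The line called degron below has nothing else. The WT, Y1F, S2A, T4V, S5A and S7A lines also carry a doxycycline-induced RPB1 complement, with a wild-type C-terminal domain or one in which the named residue of the repeated heptad was changed. Each of these 7 lines was sampled untreated and treated. Treated cells of the complement lines had doxycycline (2 µg/mL, 24 h) and dTAGV-1 (100 nM, 12 h). The treated degron line had dTAGV-1 alone. Each treated line was compared with its untreated control. In degron this asks how expression changed with dTAGV-1 and no complement. In the complement lines it asks how expression changed with a given form of RPB1 in place of the endogenous protein, together with doxycycline. Whether a line is 1 clone, and whether the 2 libraries of a group came from separate cultures, is not given in the sources used here, so p-values measure the spread between these libraries, which may be technical.

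In Notch signalling a ligand on one cell binds a receptor on its neighbour, the receptor is cut inside the membrane, and its freed intracellular domain enters the nucleus. There it joins RBPJ and a Mastermind-like coactivator on DNA and switches on target genes, among which the HES and HEY genes encode short-lived repressors. Without the intracellular domain, RBPJ recruits corepressors to the same sites. NRARP, itself a target, limits the pathway by promoting loss of the intracellular domain. HES and NRARP messenger RNAs are known for fast turnover, and several HES proteins repress their own genes.

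The label A549 was checked against markers before anything else was compared. Summed over 12 listed markers of A549 and lung epithelium, the level was 31600 CPM (counts scaled to library size, with TMM factors) in both Mock libraries and 78.3 to 182 CPM in the other 28. KRT7, KRT19, AKR1B10, AKR1C1 and AKR1C2 had a median of 0 CPM over those 28 libraries, against 129 to 5520 CPM in Mock. KRT8, KRT18, ALDH1A1 and ALDH3A1 were also lower there, with medians of 78.5, 39.1, 0.786 and 0.678 CPM against 2820 to 7450 CPM in Mock. The other 3 markers of the list did not follow: NKX2-1 was higher outside Mock (1.2 to 10.6 against 0 to 0.307 CPM), and SFTPB (at most 1.21 CPM) and NAPSA (at most 1.95 CPM) were low and overlapped. A list of 7 markers of kidney-derived HEK293 or neuronal cells summed to 65.3 and 73.0 CPM in Mock. Of these, IRS4 (0.0958 and 0.102 CPM in Mock, 50.7 to 1460 CPM elsewhere), LIN28B, NEFL and NEFM were higher in all 28 libraries than in Mock. INA was lower (53.0 and 58.1 CPM in Mock, at most 8.13 CPM elsewhere), PAX2 overlapped, and STMN2 was at most 0.239 CPM. The 9 markers of the labelled line that were high in Mock were thus far lower, and 5 of them at a median of 0, outside it, and a difference between Mock and the other lines cannot be told apart from a difference in the cells themselves. The sum of that list of 7 also moved with treatment, from 959 to 1820 CPM in the untreated lines to 170 to 1130 CPM in the treated ones. IRS4 had the highest median of the 7 over the 28 libraries, 789 CPM, followed by LIN28B at 128 CPM. The sum therefore need not show a move of the whole list, and its part in the results below was not tested. Fibroblast, endothelial and immune lists summed to at most 53.3, 6.66 and 16.2 CPM. Total counts per library ran from 10866089 to 17912802. POLR2A messenger RNA rose in 5 of the 7 treated lines. In degron, which has no complement, and in T4V the log2 fold changes were 0.55 ± 0.26 and 0.56 ± 0.26 and were not called. Whether reads of the complement were counted in POLR2A was not tested. These values say nothing of the RPB1 protein.

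Among the 10 genes the targets fell most often with treatment, and the fall was widest in the degron line. A gene is called here, and said to have risen or fallen, when edgeR's quasi-likelihood test gave a Benjamini-Hochberg adjusted p under 0.05 over all genes tested in that comparison. In the degron line 6 of the 10 fell and 0 rose, against 44.4% of all genes called in either direction. In the WT line 1 fell, HEY1, where 4.93% of all genes were called. In Y1F 3 fell (background 44.0%), in S2A 2 fell and 3 rose (35.1%), and in T4V 3 fell and 1 rose (28.9%). In S5A 5 fell and 1 rose (49.7%), and in S7A 3 fell and 1 rose (34.9%). The share of members called in either direction was not far from that of all genes in any line. It was 6 of 10 in degron and S5A and 3 to 5 of 10 in the other mutants. By direction they parted more. Of all genes tested 21.4% fell in degron, 24.2% in S5A, 21.0% in Y1F and 1.84% in WT. The fallen shares were 18.2% in S2A, 14% in T4V and 17.1% in S7A. The members were chosen with earlier results of these data known, so these shares are a description only. In S2A the 2 that fell were near the share of all genes. In the other lines falls were more frequent among the members, most clearly in degron and S5A. This tilt was not tested. The median log2 fold change of the 10 was -0.86 in degron, -0.46 in S5A and between -0.13 and 0.03 in the other 5 lines, beside -0.01 to 0.05 over all genes tested. All of these counts depend on the scaling, as shown further on. In bulk RNA, fewer cells expressing a gene and less RNA per cell cannot be told apart.

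**Figure D1:**
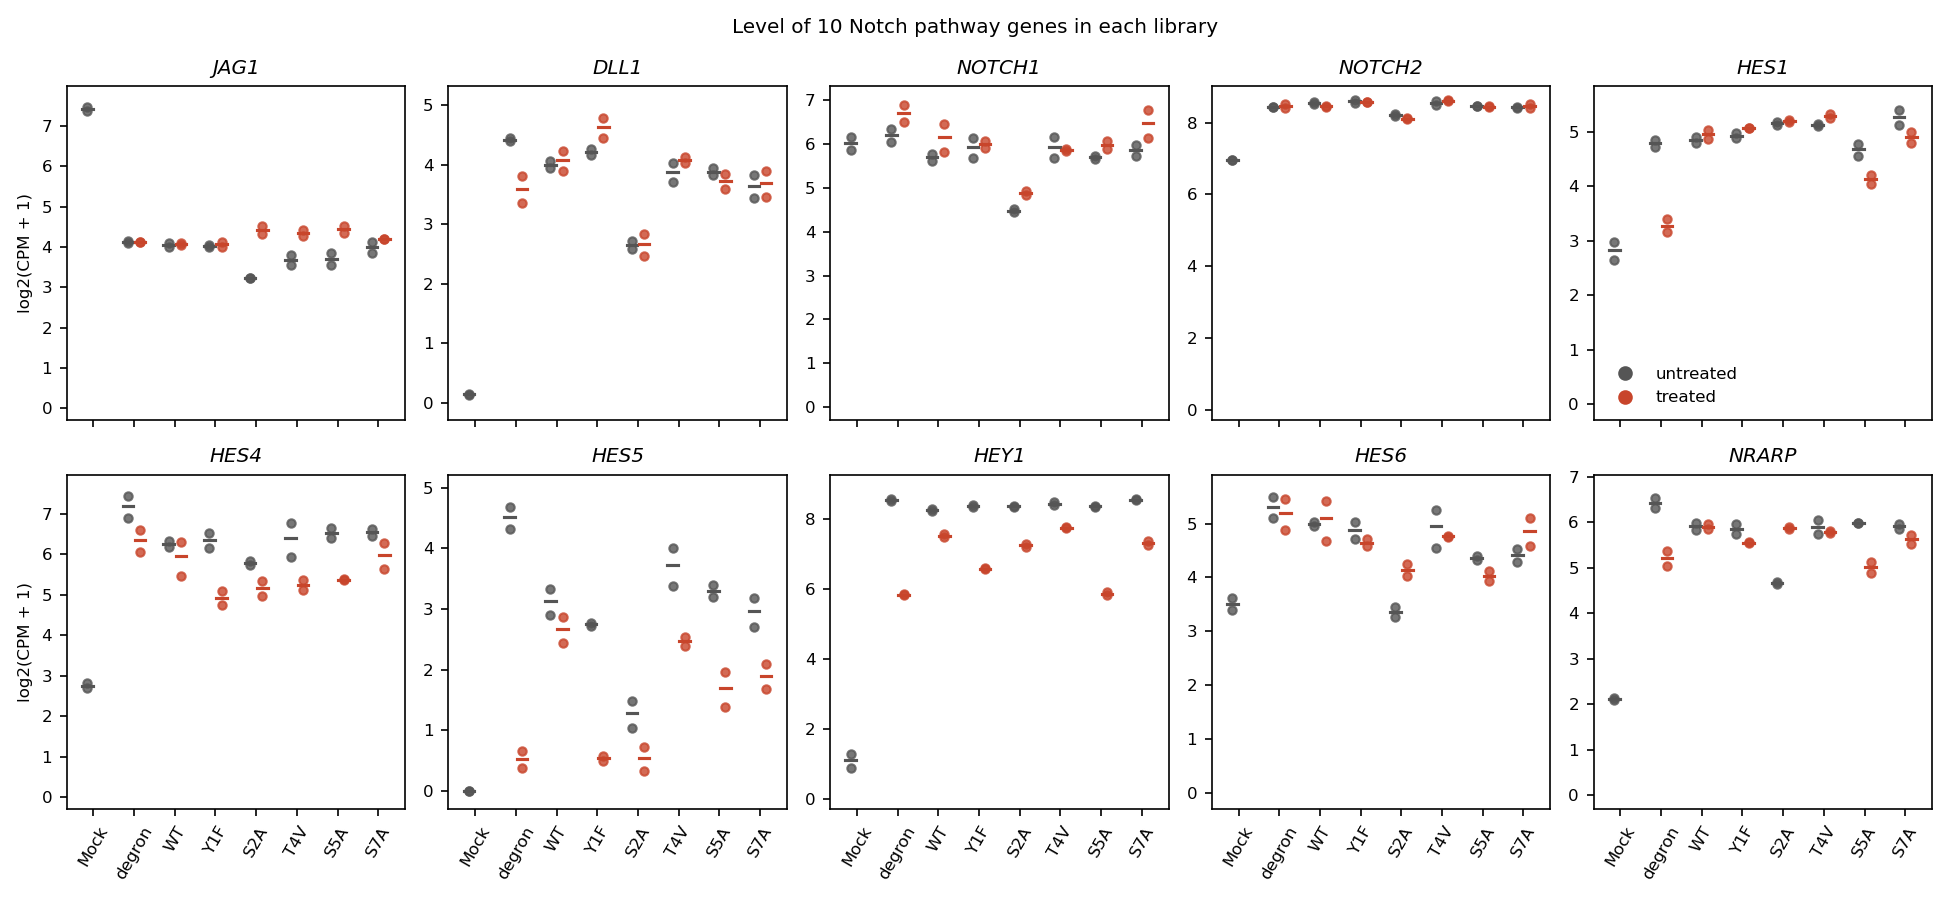
Level of each of the 10 genes in the 30 libraries, as log2(CPM + 1) with TMM-scaled library sizes; points are libraries, bars are group means, grey is untreated and red is treated. HEY1 was lower in the treated than in the untreated libraries of every line, while NOTCH2 stayed between 271 and 396 CPM in all 28 libraries outside Mock.

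JAG1 encodes a Notch ligand of the Jagged class, and it was called lower in no line at TMM scaling. Its gene lies at chr20:10637684-10673999 on the minus strand (GRCh38, GENCODE release 29) and spans 36.3 kb. In S2A it measured 8.34 and 8.42 CPM untreated and 21.9 and 19.2 CPM treated, so the treated libraries were clearly apart. This was a rise of 1.29 ± 0.14 on the log2 scale (SE, 2 libraries a group, adjusted p = 3.8e-07), or 2.45-fold. The treated level was close to that of the other treated lines, and it was the untreated S2A libraries that were lowest among all 28. In T4V JAG1 went from 12.9 and 10.8 to 18.5 and 20.5 CPM, a log2 fold change of 0.72 ± 0.13 (adjusted p = 0.00034), which was not called under mitochondrial scaling (0.14) or with the authors' factors (0.27). In S5A it went from 13.5 and 10.7 to 19.4 and 22.1 CPM, a log2 fold change of 0.78 ± 0.13 (adjusted p = 4.7e-05), a call that ended under mitochondrial scaling (0.03) and a direction that turned with the authors' own size factors (-0.18). The degron, WT, Y1F and S7A lines gave log2 fold changes of 0.01 to 0.23, none of them called.

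DLL1, a ligand of the Delta class (chr6:170282206-170306565, minus strand), behaved otherwise. It measured 20 and 20.7 CPM in untreated degron libraries and 9.19 and 13 CPM in treated ones, without overlap. The log2 fold change was -0.87 ± 0.19 (adjusted p = 0.00095). In the other 6 lines it was between -0.16 and 0.42 at TMM scaling and was not called. The authors' deposited comparisons also call DLL1 lower in S5A (-1.12) and S7A (-0.79), and not in WT, Y1F, S2A or T4V. The S2A line stood apart in level, with 4.49 to 6.12 CPM in its 4 libraries, where the other 24 libraries outside Mock ran from 9.19 to 26.6 CPM.

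The receptor genes changed little at TMM scaling. NOTCH2 (chr1:119911553-120069626, minus strand, 158 kb, the longest gene of the 10) had log2 fold changes from -0.11 to 0.08 with an SE of 0.07 in the 7 lines, and was called in none. NOTCH2 has near-identical NOTCH2NL copies, between which the counting could split reads, so its values are uncertain. NOTCH1 (chr9:136494433-136545786, minus strand) was called in S7A alone. There it went from 52.1 and 61.9 to 68.8 and 108 CPM, a log2 fold change of 0.64 ± 0.22 (adjusted p = 0.029). The 2 treated libraries lay far apart, and without S7A treated replicate 2 the value was 0.27 (adjusted p = 0.45); without untreated replicate 1 it was 0.51 (0.18) and without untreated replicate 2 it was 0.76 (0.051). With the authors' factors the NOTCH1 direction in S7A turned to -0.21. NOTCH1 was also higher after treatment in degron (0.52 ± 0.22, adjusted p = 0.06), which was not called.

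HES1, HES4 and HES5 are direct targets of RBPJ in many tissues, and their promoters are shown because the core letters that RBPJ binds can be read in them. The letters TGGGAA and the longer GTGGGAA, which contains it, were searched on both strands from 250 bases before to 50 after the RefSeq start, in 8 of the 10 genes with an entry. TGGGAA was found in HES1, HES4 and HES5 and not in JAG1, NOTCH1, NOTCH2, HES6 or NRARP. In all 3 the longer GTGGGAA stood on the gene's strand at a similar place, beginning 85 bases before the start in HES1, 77 in HES4 and 81 in HES5. The sequences run 5′ to 3′ on the gene's strand from 250 to 61 bases before the start (RefSeq, GRCh38.p14), with TGGGAA or its reverse complement TTCCCA in capitals. They are chr3:194135898-194136087 (plus strand), chr1:1000158-1000347 (minus strand) and chr1:2530324-2530513 (minus strand).
HES1: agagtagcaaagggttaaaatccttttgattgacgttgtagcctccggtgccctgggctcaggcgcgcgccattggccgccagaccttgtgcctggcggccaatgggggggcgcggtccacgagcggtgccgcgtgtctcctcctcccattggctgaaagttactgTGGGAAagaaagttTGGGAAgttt
HES4: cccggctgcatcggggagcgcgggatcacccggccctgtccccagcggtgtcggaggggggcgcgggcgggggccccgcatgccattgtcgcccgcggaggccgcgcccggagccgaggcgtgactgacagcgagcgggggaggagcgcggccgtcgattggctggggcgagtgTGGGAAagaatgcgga
HES5: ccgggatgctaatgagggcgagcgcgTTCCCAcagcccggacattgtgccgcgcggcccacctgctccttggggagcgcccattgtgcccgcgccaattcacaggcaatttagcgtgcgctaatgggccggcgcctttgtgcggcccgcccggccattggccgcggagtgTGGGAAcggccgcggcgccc
HES1 held a second TGGGAA 70 bases before the start, and HES5 a second match, on the other strand, 224 bases before it. Of 35116 promoters of the same length, 24.0% held TGGGAA and 6.25% held GTGGGAA. None of the 8 windows held a pair of exact TGGGAA matches in opposite orientation 15 to 19 bases apart, present in 0.0655% of all windows. Pairs in which either site has other letters were not searched for. The search therefore does not say whether a window holds a paired RBPJ site. The letters CACNAG, an N box of the kind HES proteins bind, occurred 4 times in the HES1 window and in 38.0% of all windows. NOTCH1, NOTCH2 and NRARP held CACNAG as well. A match describes letters only, not binding.

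**Figure D2:**
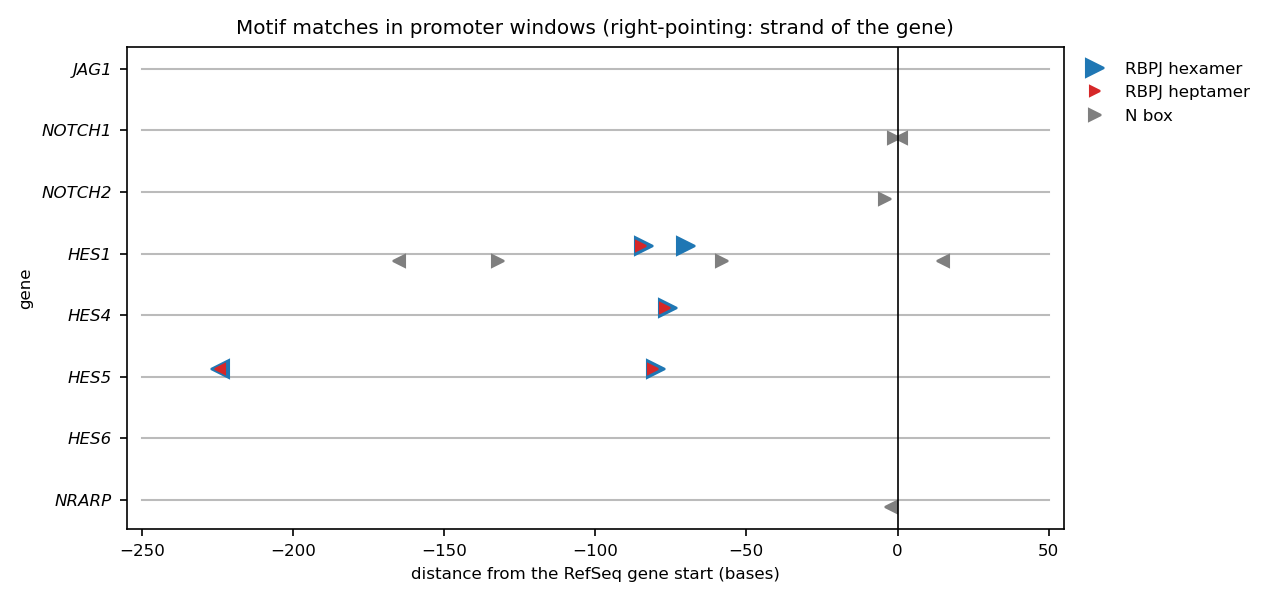
Position of motif matches in the promoter windows of 8 Notch pathway genes, in bases from the RefSeq start; blue marks TGGGAA (RBPJ hexamer), red GTGGGAA (RBPJ heptamer) and grey CACNAG (N box), and arrows point along the strand of the match. HES1, HES4 and HES5 hold the heptamer on the gene's strand 85, 77 and 81 bases before the start.

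HES5 (chr1:2528745-2530245, minus strand, 1.5 kb) had the widest range of change. It measured 24.6 and 18.9 CPM in untreated degron libraries and 0.306 and 0.578 CPM in treated ones, a 47.9-fold lower level (log2 fold change -5.58 ± 0.38, adjusted p = 5.3e-10). The 2 treated libraries together held 15 counts, against 606 before treatment. In WT the values were 8.99 and 6.46 before and 4.39 and 6.26 CPM after, with a log2 fold change of -0.53 ± 0.28 that was not called (adjusted p = 0.33). In Y1F it went from 5.80 and 5.59 to 0.411 and 0.493 CPM, 12.6-fold lower (log2 fold change -3.66 ± 0.45, adjusted p = 1.9e-06). The treated Y1F and treated degron libraries overlapped at this low level. T4V, S5A and S7A had log2 fold changes of -1.43 (adjusted p = 0.00089), -1.95 (4.7e-05) and -1.32 (0.0031), and their treated libraries lay between 1.60 and 4.81 CPM. In S2A HES5 was already low before treatment, at 1.06 and 1.80 CPM, and reached 0.652 and 0.254 CPM (log2 fold change -1.64 ± 0.59, adjusted p = 0.036). That call was lost without S2A untreated replicate 2 (-1.23, adjusted p = 0.23) and without treated replicate 2 (-1.16, adjusted p = 0.22), with 42 and 11 counts behind the groups.

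HEY1 (chr8:79764010-79767863, minus strand), which encodes a repressor of the hairy-related family, was called in all 7 lines, in each with treated libraries below untreated ones. Untreated libraries of the 7 lines ran from 301 to 382 CPM, with a median of 333. Treated libraries measured 57.1 and 55.2 CPM in degron, 55.3 and 59.0 in S5A, and 95.1 and 93.1 in Y1F. They measured 145 and 156 CPM in S2A, 151 and 163 in S7A, 188 and 177 in WT, and 216 and 213 in T4V. Degron and S5A overlapped, as did S2A and S7A, and the other neighbours in this order did not. The log2 fold changes were -2.73 in degron, -2.52 in S5A, -1.81 in Y1F, -1.26 in S7A, -1.12 in S2A, -0.75 in WT and -0.69 in T4V, each with an SE of 0.09. HEY1 was thus the sole member to fall in the line with wild-type replacement, 1.68-fold (adjusted p = 1.1e-05), although the call needs the shared estimate of spread: with the 4 WT libraries alone the adjusted p was 0.095.

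HES1 (chr3:194136145-194138732, plus strand), the best known of these repressors, fell in 3 lines. In degron it went from 27.9 and 25.3 to 7.90 and 9.48 CPM, 3.06-fold lower (log2 fold change -1.61 ± 0.14, adjusted p = 8.5e-09). In S5A it went from 26.5 and 22.6 to 17.5 and 15.4 CPM (log2 fold change -0.58 ± 0.13, adjusted p = 0.0011). In S7A it went from 33.7 and 41.2 to 26.8 and 30.7 CPM (log2 fold change -0.38 ± 0.13, adjusted p = 0.023), a call lost without S7A untreated replicate 2 (-0.24, adjusted p = 0.25) or treated replicate 1 (-0.32, adjusted p = 0.11). In WT, Y1F, S2A and T4V the log2 fold changes were 0.05 to 0.17 and were not called. HES1 and HES5 therefore parted in Y1F at TMM scaling, where HES1 measured 30.3 and 28.5 CPM before and 32.3 and 32.5 CPM after treatment. The authors' deposited comparisons call both lower in Y1F, with log2 fold changes of -0.73 for HES1 and -4.54 for HES5. They also call HES1 lower in S2A (-0.47).

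HES4 (chr1:998962-1000172, minus strand), a HES gene of the human genome that mice lack, fell in 4 lines. In Y1F it went from 91.6 and 70.2 to 25.7 and 33.0 CPM (log2 fold change -1.47 ± 0.29, adjusted p = 0.00033). In S5A it went from 98.9 and 84.5 to 41.2 and 40.0 CPM (log2 fold change -1.18 ± 0.28, adjusted p = 0.0017). In T4V it went from 108 and 60.7 to 33.9 and 40.1 CPM (log2 fold change -1.19 ± 0.29, adjusted p = 0.0036), and without T4V untreated replicate 1 the value was -0.79 (adjusted p = 0.067). Replicates lay far apart in this gene. In degron the untreated libraries measured 172 and 118 CPM against 65.2 and 96.2 CPM after treatment (log2 fold change -0.84 ± 0.28, adjusted p = 0.017), a call lost without untreated replicate 1 (-0.55, adjusted p = 0.2) or treated replicate 1 (-0.67, adjusted p = 0.11). WT, S2A and S7A gave -0.32, -0.63 and -0.56, which were not called.

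NRARP (chr9:137300482-137302251, minus strand, 1 exon), the feedback inhibitor, fell in degron and S5A and rose in S2A. In degron it went from 91.2 and 79.0 to 31.9 and 40.6 CPM (log2 fold change -1.23 ± 0.13, adjusted p = 1.9e-07). In S5A it went from 62.3 in both libraries to 28.4 and 34.2 CPM (log2 fold change -0.99 ± 0.13, adjusted p = 3.1e-06). In S2A it rose from 24.7 and 24.2 to 58.6 and 56.7 CPM, 2.36-fold (log2 fold change 1.24 ± 0.14, adjusted p = 6.2e-07), and it stayed higher, and called, under mitochondrial scaling (0.74) and the authors' factors (0.72). As with JAG1, the untreated S2A libraries were the lowest of the untreated lines, and the treated ones lay within the range of the treated WT and T4V libraries, 53.6 to 61.6 CPM. In WT NRARP measured 55.6 and 62.9 CPM before and 56.5 and 61.6 CPM after treatment.

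HES6 (chr2:238238267-238240662, minus strand), whose protein counters HES1 and favours neuronal differentiation, was called in S2A alone. It went there from 9.97 and 8.62 to 18.0 and 15.3 CPM (log2 fold change 0.85 ± 0.27, adjusted p = 0.019). The call was lost without S2A untreated replicate 1 (0.95, adjusted p = 0.054), untreated replicate 2 (0.71, adjusted p = 0.12) or treated replicate 1 (0.69, adjusted p = 0.12). Mitochondrial scaling (0.35) and the authors' factors (0.32) ended it too. The other 6 lines gave -0.35 to 0.47.

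**Figure D3:**
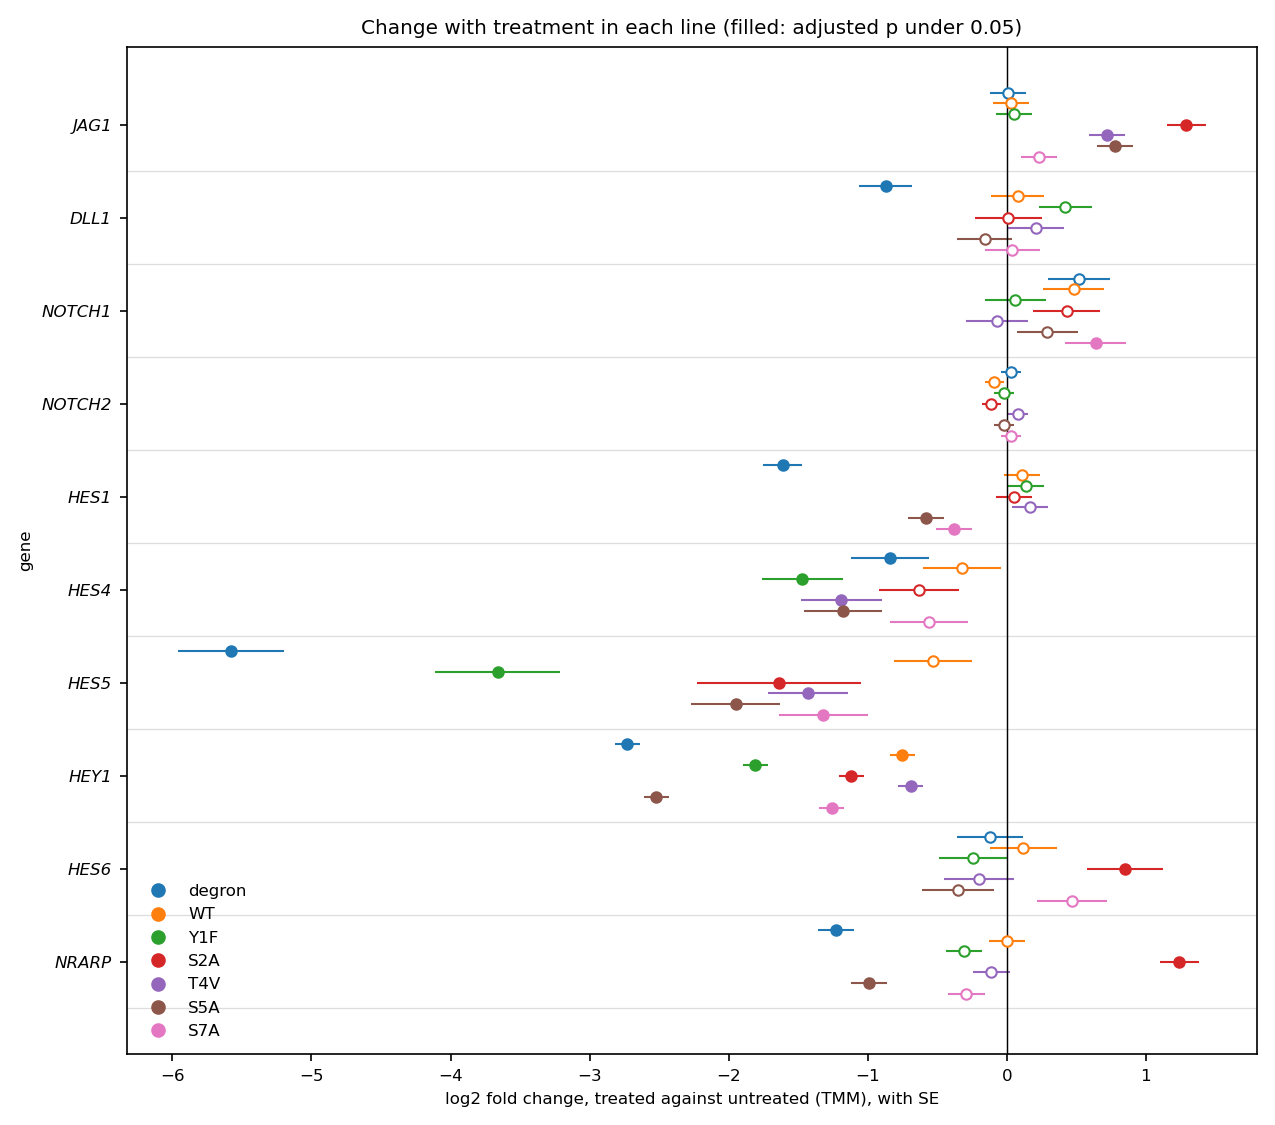
Log2 fold change of the 10 genes, treated against untreated, in 7 lines at TMM scaling; points are estimates, lines are standard errors, and filled points have an adjusted p under 0.05. HES5 and HEY1 lie farthest to the left in degron (-5.58 and -2.73), and JAG1 and NRARP lie to the right in S2A (1.29 and 1.24).

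Whether the response of a line differed from that of another was tested as a difference in change. The degron line, which carries no complement, differed from the WT line in 5 of the 10 genes, where 12.0% of all genes did (8.24% higher and 3.79% lower), and in all 5 the WT change was the higher. The difference was 5.05 ± 0.50 on the log2 scale for HES5 (adjusted p = 1.2e-06), 1.98 ± 0.12 for HEY1 (5.7e-10), 1.73 ± 0.19 for HES1 (2.9e-06), 1.23 ± 0.18 for NRARP (0.00012) and 0.95 ± 0.27 for DLL1 (0.026). Replacement and doxycycline cannot be told apart in these values, since the degron line received none. The DLL1 call was lost when any 1 of 6 of the 8 libraries was left out (0.75 to 1.02); those of HES5, HEY1, HES1 and NRARP held under every alternative run. JAG1, NOTCH1, NOTCH2, HES4 and HES6 did not pass, with differences of 0.02, -0.03, -0.12, 0.52 and 0.24.

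Among the mutants S5A departed most from WT, in 5 of the 10 genes (background 18.1%, with 6.4% higher and 11.7% lower). The difference was -1.77 ± 0.12 for HEY1 (adjusted p = 4.7e-09), -1.42 ± 0.44 for HES5 (0.028), -0.99 ± 0.19 for NRARP (0.00088) and -0.70 ± 0.18 for HES1 (0.012), so all 4 fell further than in WT. JAG1 moved the other way, with a difference of 0.75 ± 0.18 (adjusted p = 0.007). HEY1 and NRARP held with any library left out. The call of HES5 was lost without WT untreated replicate 2, WT treated replicate 2, S5A untreated replicate 2 or S5A treated replicate 1 (-1.11 to -1.34), and that of HES1 without WT untreated replicate 1, WT treated replicate 2, S5A untreated replicate 1 or S5A treated replicate 2 (-0.58 to -0.65). JAG1 lost its call without S5A untreated replicate 2 (0.56) or treated replicate 2 (0.62), and measured 0.22 under mitochondrial scaling and 0.03 with the authors' factors.

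Y1F differed from WT in 2 genes (background 9.73%, with 3.42% higher and 6.31% lower), HES5 with -3.13 ± 0.55 (adjusted p = 0.0011) and HEY1 with -1.06 ± 0.12 (adjusted p = 1.3e-05). HES4 differed by -1.15 ± 0.40 in Y1F and was not called (adjusted p = 0.072), but without WT treated replicate 1 it was (-1.53, adjusted p = 0.013). S2A differed in 2 genes (7.53%, with 2.87% higher and 4.66% lower), both higher: JAG1 by 1.27 ± 0.19 (adjusted p = 0.00029) and NRARP by 1.24 ± 0.19 (adjusted p = 0.00034). T4V differed in JAG1 alone (3.7%, with 1.36% higher and 2.35% lower), by 0.69 ± 0.18 (adjusted p = 0.04), a call lost with any 1 of the 8 libraries left out (0.57 to 0.79). S7A differed from WT in 0 of the 10 genes (0.821%, with 0.325% higher and 0.495% lower) by edgeR's test. HEY1 came nearest there, at -0.50 ± 0.12 with an adjusted p of 0.05 after rounding, and passed with DESeq2's Wald test (-0.45, adjusted p = 0.00065). The 5 mutants share the WT libraries in these tests, so their differences are not independent of one another. NOTCH1, NOTCH2, HES4 and HES6 were called in none of the 6 tests.

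**Figure D4:**
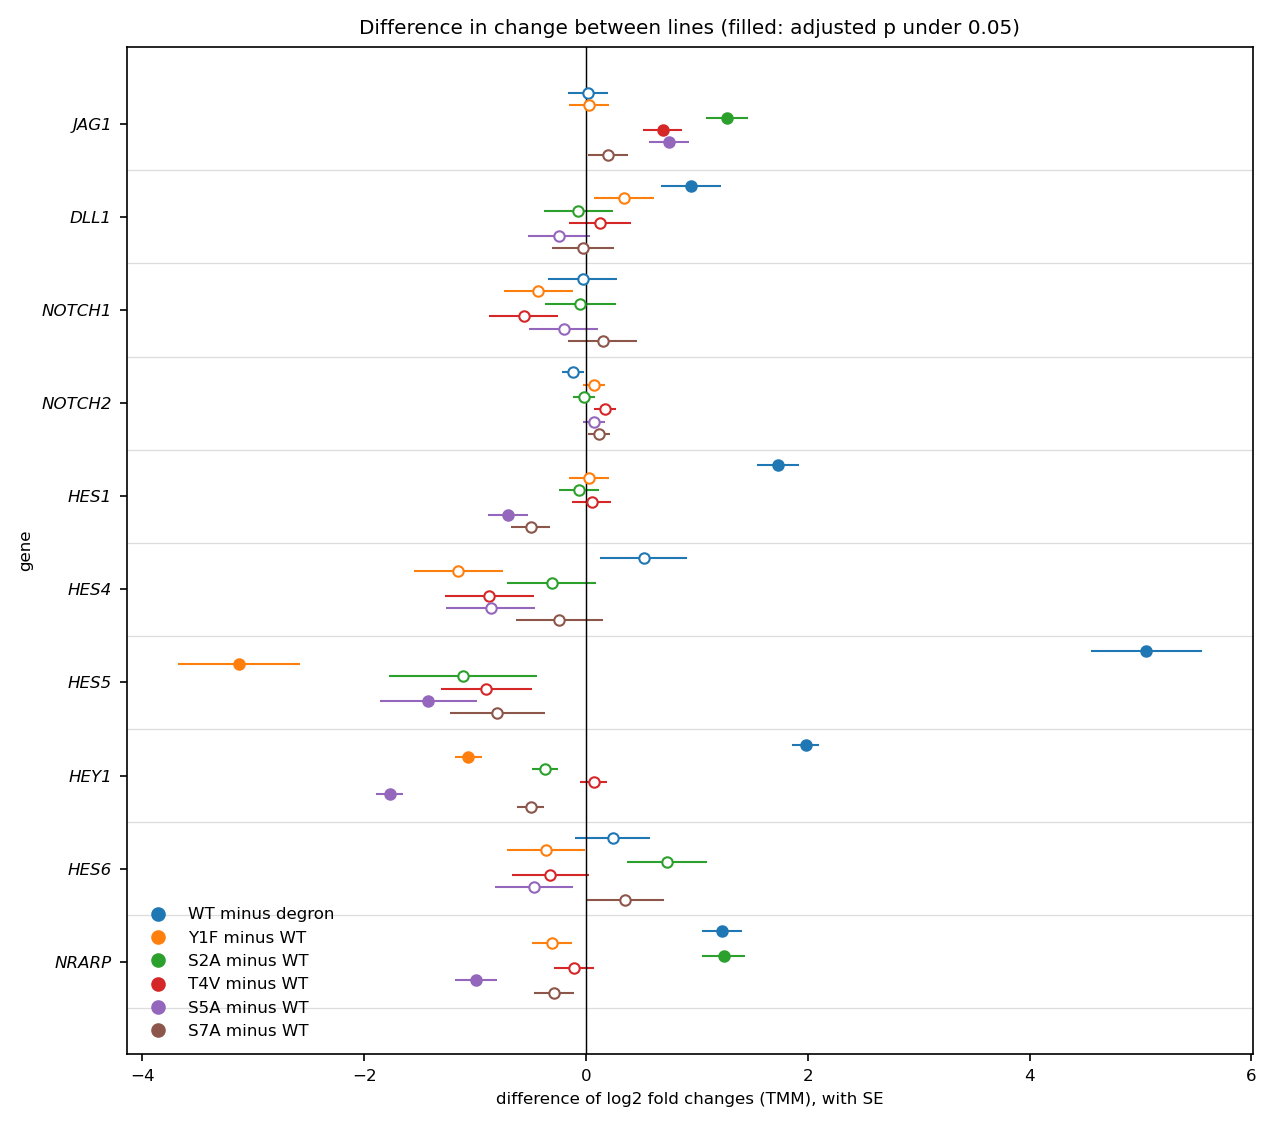
Difference of the log2 fold changes between lines for the 10 genes at TMM scaling, with standard errors; filled points have an adjusted p under 0.05. WT minus degron lies to the right for HES5, HEY1, HES1 and NRARP, and S5A minus WT lies to the left for HEY1 (-1.77), HES5 and NRARP.

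The lines differed before treatment as well. S2A had lower levels than the untreated degron line in 8 of the 10 genes and a higher one in HES1, 9 of 10 against a background of 36.3% (18.3% higher and 18.0% lower). The log2 differences were -3.91 ± 0.32 for HES5 (adjusted p = 7.9e-09), -2.06 ± 0.26 for HES6 (2.4e-06), -1.94 ± 0.21 for DLL1 (2.7e-07), -1.80 ± 0.14 for NRARP (1.4e-09), -1.77 ± 0.23 for NOTCH1 (3.4e-06) and -1.41 ± 0.28 for HES4 (0.00043). In degron HES5 measured 24.6 and 18.9 CPM untreated, above every other library. HES5 was lower than in degron in all 6 complement lines, with log2 differences from -0.83 in T4V to -3.91 in S2A, and so was NRARP, from -0.45 in S5A to -1.80 in S2A. In the same comparisons WT had 4 of 10 genes lower (background 10.2%, with 3.83% higher and 6.37% lower) and Y1F 2 (11.0%, with 4.31% and 6.74%). T4V had 3 lower (13.3%, with 5.69% and 7.6%), S5A 4 (12.7%, with 5.77% and 6.98%), and S7A 4 lower and HES1 higher (18.7%, with 8.42% and 10.3%). All 6 comparisons share the 2 untreated degron libraries. The calls of HES5 in WT, Y1F, S2A, S5A and S7A, and those of JAG1, DLL1, NOTCH1, HES4, HES6 and NRARP in S2A, held with any library left out. Without degron untreated replicate 1 the NRARP calls in the other 5 lines were lost (-0.34 to -0.47), as were HES4 in WT (-0.64), HES5 in T4V (-0.63), HES6 in S5A (-0.77) and S7A (-0.71), JAG1 in T4V (-0.49) and S5A (-0.46), and HES1 (0.44) and NOTCH2 (-0.21) in S2A. Without degron untreated replicate 2 JAG1 in T4V (-0.45) and S5A (-0.42), NOTCH2 in S2A (-0.23) and HES1 in S2A (0.30) and S7A (0.42) were lost. Leaving out 1 library of the complement line ended the call of NRARP in WT (without replicate 1), Y1F and T4V (replicate 2), S5A (either) and S7A (replicate 1), at -0.38 to -0.48. In the same way HES4 in WT (-1.01 and -0.86), HES6 in S5A (-1.03 and -0.92), NOTCH2 (-0.24 and -0.23) and HES1 (0.40 and 0.30) in S2A were lost without either replicate. HES5 and JAG1 in T4V (-0.54 and -0.35) and JAG1 in S5A (-0.26) were lost without replicate 2, HES1 in S7A without replicate 2 (0.34), and HES6 and DLL1 in S7A without replicate 1 (-0.82 and -0.65). HEY1 differed little between untreated lines, by -0.29 (WT, adjusted p = 0.035) to 0.0 (S7A) on the log2 scale, and the WT call was lost without any 1 of its 4 libraries (-0.26 to -0.32).

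Mock stood far from the 7 lines in these genes. The untreated degron line was higher in 8 of the 10 and lower in JAG1, where 64.8% of all genes were called, 33.4% higher and 31.4% lower. HEY1 measured 0.820 and 1.44 CPM in Mock and 366 and 382 CPM in untreated degron (log2 fold change 8.35 ± 0.14, adjusted p = 2.5e-21). HES5 had 0 counts in Mock, so the degron level was at least 148-fold higher, with the floor set at 3 counts over the 2 Mock libraries. DLL1 had 2 counts in Mock and 560 in degron, a ratio of 205 with an exact 95% counting interval of 56.6 to 1700. The log2 fold change was 4.68 for NRARP, 4.65 for HES4, 2.14 for HES1, 1.89 for HES6 and 1.49 for NOTCH2. JAG1 measured 165 and 178 CPM in Mock and 16.2 and 16.7 CPM in degron (log2 fold change -3.38 ± 0.13). NOTCH1 differed by 0.19 ± 0.22 and was not called. Mock is the group with A549 markers, so the degron and the cells behind these values cannot be told apart. Intervals and floors cover counting error only.

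Levels of different genes can be compared in the deposited TPM, which are per length. Over the 14 untreated libraries of the 7 lines HES4 had the highest median, 316 TPM, followed by HEY1 at 252, NRARP at 96.3, NOTCH2 at 88.5, HES1 at 60 and HES6 at 51.5. HES5 followed at 25.8, NOTCH1 at 17.2, DLL1 at 15.9 and JAG1 at 6.42 TPM. Neighbours in this order overlapped between libraries (HES4 189 to 620 and HEY1 232 to 295 TPM, for example), except HEY1 and NRARP (37.5 to 140 TPM). Over the 14 treated libraries HES4 had 148, HEY1 102 and NOTCH2 84.4 TPM, and HES5 had 5.75 TPM, less than JAG1 at 7.45. In Mock JAG1 had the highest level of the 10, 55.2 and 60.2 TPM, and NOTCH2 the next, 22.7 and 23.0 TPM.

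The 10 genes also differed in length and structure. The HES, HEY1 and NRARP genes span 1.21 to 3.85 kb with 1 to 5 exons in their longest transcript, and the ligand and receptor genes span 24.4 to 158 kb with 11 to 34 exons. Over the 14 groups without Mock, group means of HES5 went with those of HES4 (Pearson r = 0.74) and HEY1 (0.74), and HES6 with NOTCH1 (0.80), while HEY1 and JAG1 gave -0.53. These correlations are over group means of log2 CPM, with 14 points that share lines and libraries, and are descriptions only. By a correlation over all 15 groups, the 3 genes most like HEY1 were EN2, BCL7A and WNT5A (r = 0.987, 0.985 and 0.984). Those most like HES1 were HOXA5, NR2F1 and HOXA6 (0.952, 0.949 and 0.945), and those most like NRARP were LINC02381, MSX1 and ISL1 (0.964, 0.953 and 0.948). Those most like JAG1 were CAVIN1, FTL and EPHX1 (0.974, 0.969 and 0.969). Mock decides much of this: without it, HEY1 was nearest to PLK1, SPART and SRSF3 (0.985, 0.979 and 0.979), NRARP to NR4A1, VEGFA and DDIT4 (0.860, 0.841 and 0.820), and JAG1 to BTG3, SEMA7A and SUSD6 (0.876, 0.868 and 0.855). HES1 kept HOXA5 and HOXA6 (0.910 and 0.904).

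Of 55 other genes of the pathway, 52 were tested. In degron 7 rose and 18 fell, in Y1F 8 and 16, in S5A 9 and 17, in S2A 4 and 13, in T4V 3 and 13, in S7A 4 and 10, and in WT 1 and 2. Of all genes tested 23.1% rose and 21.4% fell in degron, 23.1% and 21.0% in Y1F, 25.5% and 24.2% in S5A, 17.0% and 18.2% in S2A, 14.8% and 14% in T4V, 17.8% and 17.1% in S7A, and 3.09% and 1.84% in WT, so the number called in either direction was near the background. The 52 belong to a list chosen with earlier results of these data known. By direction, more of the 52 fell than rose in each line, while the risen and fallen shares of all genes were close outside WT. This tilt was not tested. The median log2 fold change of the 52 lay between -0.24 and 0.04, near that of all genes. With mitochondrial scaling 0 to 2 rose in any line, and with the authors' factors 0 or 1.

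The other HES and HEY targets on that list, HES2, HES7, HEY2 and HEYL, rose in no line. All 4 fell in degron, Y1F and S5A (21.4%, 21.0% and 24.2% of all genes fell there), 3 in T4V (14%), 2 in S2A (18.2%) and S7A (17.1%), and 1 in WT (1.84%). Their median log2 fold change was -1.92 in degron, -1.66 in Y1F, -1.67 in S5A and -0.20 in WT. HEY2 fell in all 7 lines, by 2.37 ± 0.20 on the log2 scale in degron (adjusted p = 8.8e-09) and 1.94 ± 0.20 in S5A (1.2e-07), down to 0.68 ± 0.18 in WT (0.031). HES2 fell by 1.92 ± 0.20 in degron, 1.91 ± 0.25 in Y1F and 2.14 ± 0.28 in S5A. HES7 fell by 1.80 ± 0.43 in Y1F, from 2.54 to 0.729 CPM, and HEYL fell in S2A by 1.30 ± 0.25. The HEY2 call in WT was lost without WT untreated replicate 1 (-0.71), untreated replicate 2 (-0.66) or treated replicate 1 (-0.48). Those of HES2 in T4V and S7A, and of HEYL in degron, Y1F and T4V, were each lost without at least 1 library as well (-0.31 to -0.90).

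Among the corepressors SPEN, which RBPJ recruits in the absence of signal, fell in all 7 lines. It went from 563 to 126 CPM in degron (log2 fold change -2.16 ± 0.09, adjusted p = 7.8e-14), by 2.45 ± 0.09 in S5A, 2.02 ± 0.09 in Y1F, 1.34 ± 0.08 in S2A, 1.17 ± 0.08 in S7A, 0.97 ± 0.08 in T4V and 0.60 ± 0.08 in WT. TLE4, of the Groucho family, rose in Y1F (1.14 ± 0.09, adjusted p = 2.2e-09), T4V (1.06 ± 0.09), S5A (0.74 ± 0.09) and S2A (0.59 ± 0.09) and fell in degron (-0.23 ± 0.09), although in S5A its direction turned with mitochondrial scaling (-0.003) and the authors' factors (-0.22). The S2A rise was not called under either (0.10 and 0.08), nor the Y1F rise with the authors' factors (0.27), and the degron call was lost without untreated replicate 1 (-0.25) or replicate 2 (-0.24). In the nuclear complex RBPJ itself was called lower in degron and S7A (-0.47 ± 0.18 and -0.50 ± 0.18, a gene outside the naming rule), and MAML2, a coactivator, fell in every line but WT, by 1.80 ± 0.19 in S5A and 1.32 ± 0.21 in S7A (adjusted p = 1.8e-07 and 6.3e-05). The MAML2 call in S2A was lost without S2A untreated replicate 1 (-0.72) or treated replicate 1 (-0.69).

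The 3 other ligand genes all fell in degron, and of them DLL4 alone rose in any line. DLL4, a Delta-class ligand, rose in Y1F (1.43 ± 0.28, adjusted p = 0.00035), S2A (1.49 ± 0.32, adjusted p = 0.00097) and S7A (0.98 ± 0.31, adjusted p = 0.017) and fell in degron (-0.67 ± 0.24, adjusted p = 0.025). Its level was low, at means of 0.898 to 3.97 CPM over the groups of these 4 lines. The S7A rise was not called under mitochondrial scaling (0.60) or with the authors' factors (0.14), nor the Y1F rise with the authors' factors (0.56). The DLL4 call in S7A was lost without untreated replicate 1 (0.67) or treated replicate 2 (0.50), and that in degron without untreated replicate 1 (-0.57) or treated replicate 1 (-0.66). JAG2, of the Jagged class, fell in degron (-1.22 ± 0.23), Y1F (-1.46 ± 0.24), T4V (-0.99 ± 0.24) and S5A (-0.74 ± 0.24). DLL3, a divergent Delta-class protein, fell in every line but WT, from -0.83 ± 0.23 in T4V to -1.42 ± 0.24 in Y1F.

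Genes that act on ligands or receptors gave fewer calls. LFNG, a glycosyltransferase that tunes which ligand a receptor answers, rose in WT (0.87 ± 0.22, adjusted p = 0.025) and S7A (0.93 ± 0.24, adjusted p = 0.0049) and fell in Y1F (-0.62 ± 0.25, adjusted p = 0.045) and T4V (-0.97 ± 0.24, adjusted p = 0.0049). The LFNG call was lost without any 1 of the 4 WT libraries (0.78 to 0.97), without S7A treated replicate 2 (0.71), without T4V untreated replicate 1 (-0.69), and without Y1F untreated replicate 1, untreated replicate 2 or treated replicate 1 (-0.53 to -0.75). Mitochondrial scaling and the authors' factors ended the LFNG calls in WT (0.65 and 0.63) and S7A (0.55 and 0.09). POGLUT1, another glycosyltransferase of the receptors, rose in degron (0.53 ± 0.14), Y1F (0.37 ± 0.15) and S5A (0.38 ± 0.14), with its direction turned by the authors' factors in all 3. It lost its call without degron untreated replicate 1 (0.45) or treated replicate 1 (0.37), and without any 1 library of Y1F or S5A (0.22 to 0.42). MIB2, a ligase that helps internalise ligands, rose in S5A (1.20 ± 0.30, adjusted p = 0.0019), S7A (0.91 ± 0.29) and degron (0.84 ± 0.29), where its direction turned with the authors' factors (-0.02). Its call was lost in degron without untreated replicate 2 (0.63) or treated replicate 2 (0.48), and in S7A without untreated replicate 1 (0.67) or treated replicate 2 (0.49). Mitochondrial scaling ended the MIB2 call in all 3 lines (0.36 to 0.52).

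NEURL1, another ligase of that kind, fell in T4V (-1.0 ± 0.33, adjusted p = 0.029), a call lost without untreated replicate 1 (-0.78), treated replicate 1 (-1.07) or treated replicate 2 (-1.02). Among genes for receptor cleavage PSEN2 rose in S5A (1.16 ± 0.20), a call that ended under mitochondrial scaling (0.42) and the authors' factors (0.21). NCSTN rose in degron (0.45 ± 0.09), T4V (0.32 ± 0.10) and S7A (0.26 ± 0.09), and its direction turned in all 3 lines under both other scalings. Its call was lost in T4V without untreated replicate 2, treated replicate 1 or treated replicate 2 (0.20 to 0.29), and in S7A without untreated replicate 1, untreated replicate 2 or treated replicate 2 (0.13 to 0.30).

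Of the Deltex genes, whose products are ubiquitin ligases acting on the receptors, DTX2 rose in Y1F (0.68 ± 0.24) and S5A (0.57 ± 0.23). Its direction turned with the authors' factors in both, and its call was lost in Y1F without untreated replicate 1, untreated replicate 2 or treated replicate 2 (0.39 to 0.72) and in S5A without any 1 library (0.42 to 0.65). DTX4 fell in T4V (-1.88 ± 0.42, adjusted p = 0.0023) and in degron (-2.01 ± 0.70, adjusted p = 0.024), there from 0.485 to 0.117 CPM, a call lost without degron untreated replicate 1 (-0.97) or treated replicate 1 (-1.57). In S2A it was called lower too (adjusted p = 0.034), from 0.208 to 0 CPM, which is too low for a fold, and that call was lost without untreated replicate 1, treated replicate 1 or treated replicate 2. NEUROG2, a proneural gene of the kind HES proteins repress, rose in S2A from 0.756 to 1.79 CPM (1.23 ± 0.35, adjusted p = 0.0089) and differed there from WT by 1.66 ± 0.47 (adjusted p = 0.035). The S2A rise was lost without untreated replicate 2 (1.16) or treated replicate 1 (1.12), and under mitochondrial scaling (0.74) or the authors' factors (0.71). In degron NEUROG2 fell (-0.96 ± 0.30, adjusted p = 0.014), a call lost without untreated replicate 1 (-0.76) or treated replicate 1 (-0.88).

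Scaling matters for all these statements, because TMM sets the bulk of genes to no change. Fly S2 cells were spiked in at 10%, per the labels. The counts used here are of human genes, so they could not be scaled to fly reads. Under scaling to 13 mitochondrial messenger RNAs the median log2 fold change of all genes tested was -0.17 in WT and -0.30 to -0.70 in the other 6 lines. With the authors' own size factors, recovered from their tables' base means, it was -0.19 in WT and -0.41 to -0.92 elsewhere. At TMM scaling 23.1% of genes were called higher and 21.4% lower in degron, against 9.72% and 42.5% under the mitochondrial and 6.93% and 60.8% under the authors' scaling. In S5A these were 25.5% and 24.2%, 10.6% and 56.8%, and 8.75% and 62.5%, and in Y1F 23.1% and 21.0%, 13.3% and 36.7%, and 8.06% and 60%. In S2A they were 17.0% and 18.2%, 7.41% and 46.1%, and 6.88% and 43.9%, in T4V 14.8% and 14%, 4.16% and 48.3%, and 4.44% and 33.7%, and in S7A 17.8% and 17.1%, 9.27% and 38.3%, and 6.49% and 61.4%. In WT they were 3.09% and 1.84%, 2.03% and 9.48%, and 1.37% and 1.90%. With the authors' factors 9 of the 10 genes fell in Y1F and S5A, 8 in S7A and 5 in S2A and T4V. HES5 and HEY1 fell under all 3 scalings in the same lines, and in degron the HEY1 values were -2.73, -3.22 and -3.59, while the median of all genes moved from 0.05 to -0.42 and -0.79. NOTCH2, not called at TMM scaling, fell in degron and the 5 mutant lines under mitochondrial scaling (-0.36 to -0.76). Among the 10 genes, JAG1 and NRARP in S2A were the calls of a rise that held under all 3 scalings.

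**Figure D5:**
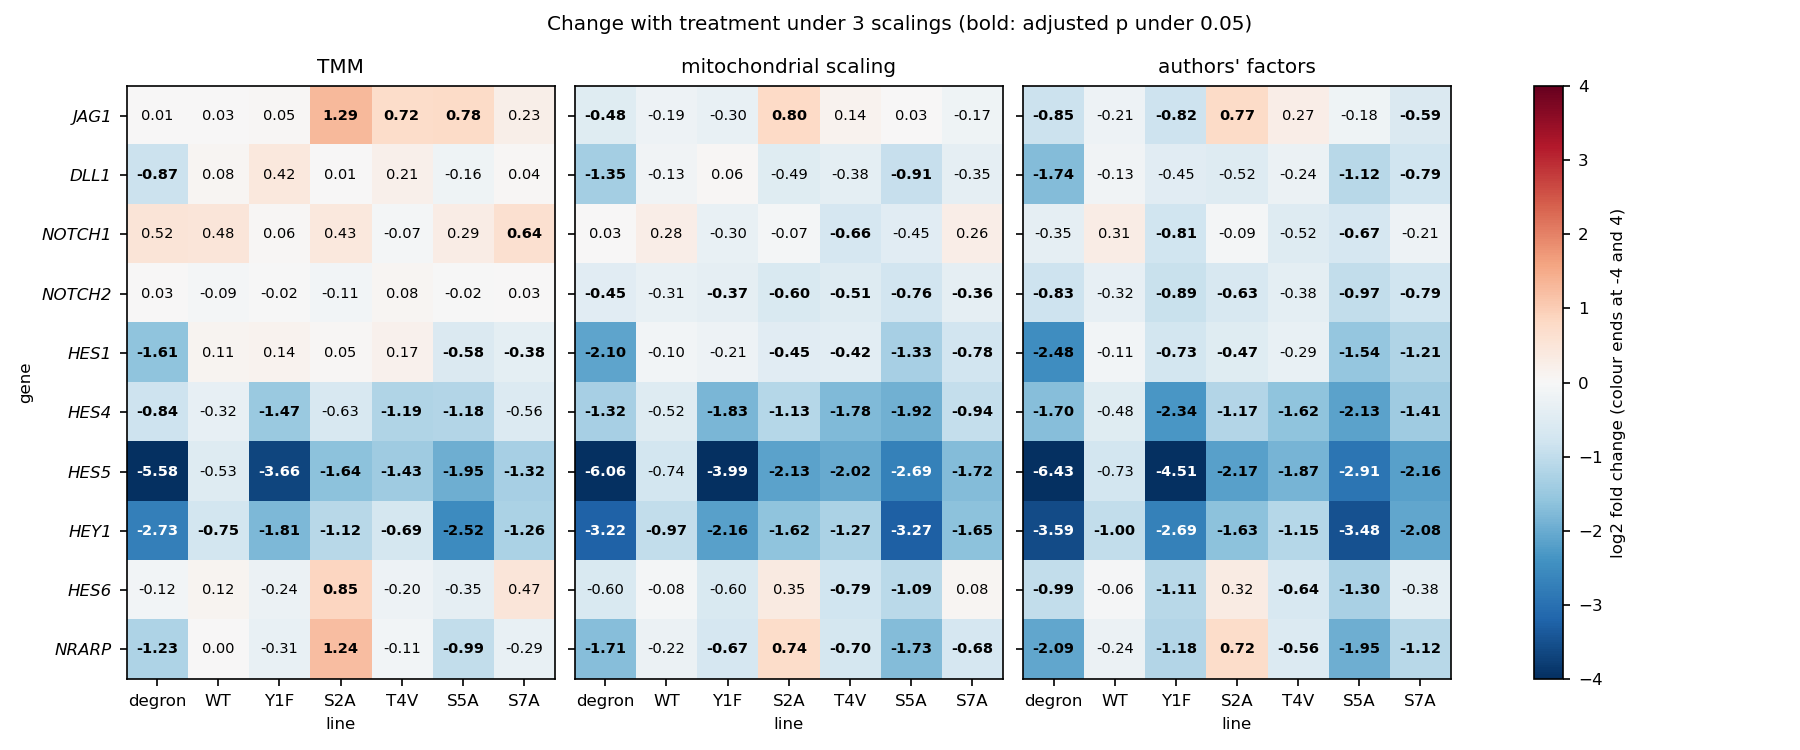
Log2 fold change of the 10 genes, treated against untreated, in 7 lines under TMM, mitochondrial scaling and the authors' factors; colour and numbers give the value, and bold marks an adjusted p under 0.05. HES5 and HEY1 stay blue throughout (HEY1 in degron -2.73, -3.22 and -3.59), while NOTCH2 turns from near 0 to negative.

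The authors' deposited tables call 9 of the 10 genes lower in degron, Y1F and S5A, 7 in S7A, 6 in T4V, 5 in S2A and 0 in WT, at an adjusted p under 0.05. The share of all genes that they call lower is not given here. With the authors' factors in edgeR, 60.8% of all genes fell in degron, 60% in Y1F, 62.5% in S5A and 61.4% in S7A. The shares were 33.7% in T4V, 43.9% in S2A and 1.9% in WT, so such counts largely follow a shift of all genes. The same deposited tables call JAG1 and NRARP higher in S2A, and no member higher elsewhere. For HES5 the authors' deposited table gives a log2 fold change of -6.47 in degron and -4.54 in Y1F, and for HEY1 it gives -1.0 in WT with an adjusted p of 0.43, which it does not call.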

How the data were processed

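Poly(A) RNA of 30 libraries, 2 for each of 15 groups, was sequenced. Per the submitters' processing notes, Trim Galore 0.6.2, STAR 2.7.3a, featureCounts 2.0.1 and DESeq2 1.24.0 were used, with builds hg38 and dm6. No source used here gives the annotation release or the strand setting. The authors deposited raw counts per gene and TPM, which are scaled for length and depth. The authors' deposited comparison tables hold a base mean signal, a log2 fold change, and p-values with adjusted p-values. Per the labels' protocols 10% of fly S2 cells were added as a spike-in, and no source used here says how the authors made their size factors.

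The test was edgeR's quasi-likelihood test (version 4.0.16, R 4.3.3, robust, TMM factors) in 1 fit of 30 libraries with 15 residual degrees of freedom. Genes passed filterByExpr (minimum count 10, minimum total 15), and p-values were Benjamini-Hochberg adjusted within each of 20 comparisons. Standard errors were the log2 fold change divided by the root of F. CPM used TMM-scaled library sizes, and depth was 10866089 to 17912802 counts. Alternatives were DESeq2 1.42.0 (size factors and Wald test), scaling to 13 mitochondrial messenger RNAs, the authors' factors, other filters, a replicate block, a GC correction (95.3% of genes tested had a value), own libraries, and leaving out each library. The fit was tested on simulated data. Counts of the 2 libraries of a group differed by more than sampling noise in every group (chi-square per degree of freedom 1.29 to 27.7).

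The members and gene lists were chosen with earlier results of these data known. Per line, the pathway genes named were at most 3 that rose and 3 that fell, those of largest change whose mean reached 1 CPM; values of such genes in further lines, and RBPJ, JAG2 and DLL3, were chosen after their values were seen. A further gene named by this rule is not reported here. Likeness was computed over genes whose mean reached 5 CPM. Promoter windows came from RefSeq (GRCh38.p14) and gene models from GENCODE release 29.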

Additional observations from a re-analysis of the deposited data

Results flagged for a closer look

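In 15 tests the change with treatment differed between 2 lines, by edgeR's quasi-likelihood test of the difference itself (adjusted p under 0.05 over all genes tested). Between WT and degron the log2 difference was 5.05 for HES5, 1.98 for HEY1, 1.73 for HES1, 1.23 for NRARP and 0.95 for DLL1. Between Y1F and WT it was -3.13 for HES5 and -1.06 for HEY1. Between S2A and WT it was 1.27 for JAG1 and 1.24 for NRARP, and between T4V and WT 0.69 for JAG1. Between S5A and WT it was -1.77 for HEY1, -1.42 for HES5, -0.99 for NRARP, -0.70 for HES1 and 0.75 for JAG1. Each rests on 2 libraries a group, and the tests share the WT libraries.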

How the results depend on the processing

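With the authors' factors these log2 fold changes turned negative: in degron JAG1 -0.85, NOTCH2 -0.83, MIB2 -0.02, POGLUT1 -0.33 and NCSTN -0.41; in Y1F JAG1 -0.82, NOTCH1 -0.81, HES1 -0.73, POGLUT1 -0.50 and DTX2 -0.20; in S2A HES1 -0.47; in T4V NCSTN -0.13. For S5A they were JAG1 -0.18, NOTCH1 -0.67, POGLUT1 -0.57, TLE4 -0.22 and DTX2 -0.38, and in S7A JAG1 -0.59, DLL1 -0.79, NOTCH1 -0.21, NOTCH2 -0.79 and NCSTN -0.57. With mitochondrial scaling they were JAG1 -0.48, NOTCH2 -0.45 and NCSTN -0.04 in degron, HES1 -0.45 in S2A, NOTCH2 -0.51, HES1 -0.42 and NCSTN -0.27 in T4V, POGLUT1 -0.36, TLE4 -0.003 and DTX2 -0.17 in S5A, and NOTCH2 -0.36 and NCSTN -0.12 in S7A. The NOTCH2 difference between S5A and WT was -0.45 and -0.65 under these scalings, and NOTCH2 in S5A was 0.15 with a mean of at least 5 CPM. The cause was not tested.

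Counts of called genes moved as follows. For most settings here and in the next paragraph, the share of all genes called is not given beside the counts. A change in such a count cannot be told apart from a change in calls over all genes. With the authors' factors Y1F and S5A had 9 fallen members, S7A 8, and S2A and T4V 5 each, 0 rose in T4V, S5A and S7A, and other pathway genes called numbered 44 in degron, 42 in Y1F, 40 in both S5A and S7A, 32 in S2A and 25 in T4V. Members differing from WT were then 9 in S5A, 6 in Y1F, 4 in S7A and 0 in T4V. Of all genes 1.41% were higher and 42.2% lower in S5A than in WT, and 0.896% and 34.2% in Y1F. In S7A these shares were 0.345% and 21.5%, and in T4V 0.0601% and 2.88%. Under scaling to mitochondrial messenger RNAs Y1F and S2A had 5 fallen members, T4V and S5A 8 and S7A 6, 0 rose in T4V, S5A and S7A, other pathway genes called were 6 in WT, 32 in S2A, 34 in T4V and 25 in S7A, 0 members differed in T4V, and untreated differences from degron were 1 each in WT, Y1F and T4V and 2 each in S5A and S7A. With GC correction 1 member rose in degron, 1 in WT, 2 in Y1F, 2 in T4V and 2 in S5A, 3 fell in WT and 5 in S7A, other pathway genes were 12 in WT, 26 in S2A, 27 in T4V and 31 in S7A, differences from WT were 4 in Y1F, 4 in S2A, 2 in T4V and 2 in S7A, and untreated ones 4 in Y1F, 8 in T4V and 7 in S5A. With the replicate block and GC correction together the values were the same except 11 in WT, 27 in S2A and 29 in S7A for other pathway genes, 3 in S7A for differences from WT, and 6 in T4V untreated. With each line's own libraries 1 rose in degron, 1 in Y1F, 2 in S5A and 0 in S7A, 0 fell in WT, other pathway genes were 15 in degron, 0 in WT, 26 in S2A, 7 in T4V and 8 in S7A, 0 members differed in T4V, and untreated differences were 0 in T4V and 7 in S5A. With a mean of at least 5 CPM 1 rose in degron, 1 in Y1F, 2 in S5A and 3 in S7A, and 1 fell in S2A. Without the low-count filter 1 rose in degron. DESeq2's Wald test gave 1 difference in S7A, and 4 and 5 untreated differences in Y1F and T4V.

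Replicate numbers did not pair the libraries in the same way in every line. The correlation of replicate differences was 0.62 in S7A and -0.08 to 0.09 in S2A, T4V and S5A. It was -0.72 in degron, -0.57 in Y1F and -0.46 in WT. With the replicate block 1 member fell in S2A, 1 other pathway gene was called in WT, 0 members differed in T4V, and untreated differences were 2 in WT, 1 in T4V and 2 in S5A. With the crossed replicate block, chosen after seeing the data, 1 rose in degron, 1 in Y1F and 2 in S7A, 5 fell in S7A, 23 other pathway genes were called in S7A, 1 member differed in S7A, and untreated differences were 6 in T4V and 7 in S5A. Leaving out 1 library gave 0 to 1 risen in degron and in S7A, 1 to 2 fallen in S2A, 1 to 2 other pathway genes in WT, 11 to 15 in S2A and 10 to 18 in T4V, 0 to 1 differing in T4V and 3 to 6 in S5A, and untreated differences of 1 to 3 in WT, 1 to 3 in Y1F, 0 to 5 in T4V, 1 to 3 in S5A and 2 to 4 in S7A. HES5 had 15 counts in treated degron, 14 in treated Y1F and 11 in treated S2A, so depth limits the folds and differences that rest on them.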
